A study of Mus musculus with 2 samples.

Results

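Melanocytes were examined in epidermal preparations of mouse back skin at postnatal day 2, in which 218 of 8206 cells that passed the cell limits carried a melanocyte marker profile. Members were chosen by the measured UMIs of marker genes: a cell was taken when at least 4 of the 5 markers Pmel, Dct, Tyrp1, Mlana and Mitf were detected and Pmel, Dct, Mlana and Tyrp1 together reached at least 5 per 10000 of its unique molecular identifiers (UMIs, each the tag of 1 captured transcript). Cells entered this choice with more than 1000 and fewer than 8000 detected genes and under 15% mitochondrial UMIs. The control library held 131 members among 4844 cells and the Gli2EKO library 87 among 3362.

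Both libraries came from 2 day old mice on a C57BI/6N background, and each genotype was represented by 1 library of an unstated number of animals. The study used mice of either sex, but the labels give none for a library. In melanocytes Xist, the RNA of the inactive X chromosome, had no UMI in either library, and the Y-linked Eif2s3y had a UMI in 95 of 131 control and 54 of 87 Gli2EKO cells. Gli2EKO mice carried floxed Gli2 alleles (Gli2 fl/fl) and a K14Cre transgene. Controls were floxed littermates without Cre. The keratin 14 promoter drives Cre in basal keratinocytes and the appendages they form, so the design removed Gli2, a transcription factor of the Hedgehog pathway, from the epithelium around the melanocytes. Animals, library preparation and genotype cannot be told apart with 1 library a side, and no test between genotypes was possible. All intervals are 95% intervals that cover counting error only.

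Melanocytes arise from the neural crest, migrate through the dermis and enter the epidermis and the growing hair follicles, where those of the hair bulb pass pigment to the hair shaft. They build melanin inside melanosomes, organelles with a fibrillar matrix that Pmel forms and on which tyrosinase and its relatives Tyrp1 and Dct work. MITF is the master transcription factor of the lineage, and signals through the receptors Kit and Ednrb keep melanoblasts alive and dividing.

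MITF recognises a short motif known as the M-box. The 250 bases before the start of Tyr, the gene of tyrosinase, are shown whole because this gene was outside the membership rule and among those most enriched in these cells, with the stretch around the motif in 3 promoters of the rule for comparison. Starts are those of the canonical GENCODE transcripts, the build is GRCm39, each sequence reads 5′ to 3′ on the strand of its gene, and capitals mark TCATGTG or its reverse complement CACATGA.
Tyr promoter, chr7:87142721-87142970, minus strand: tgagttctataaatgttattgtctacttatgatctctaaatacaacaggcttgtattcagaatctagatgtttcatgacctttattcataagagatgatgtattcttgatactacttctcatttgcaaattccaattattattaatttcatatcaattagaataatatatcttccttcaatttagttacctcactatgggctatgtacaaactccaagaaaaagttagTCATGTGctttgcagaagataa
Tyrp1 site, chr4:80752393-80752419, plus strand: ggggagggagTCATGTGctgcctagta
Dct site, chr14:118289793-118289819, minus strand: gcacttagggTCATGTGctaacaaaga
Mlana site, chr19:29674974-29674998, plus strand: acattagaCACATGAtaaaaatact

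In the 250 bases before the start, the M-box letters stood in 4 of 5 promoters read (Tyr, Tyrp1, Dct and Mlana, with none in Pmel) and in 632 of 21770 promoters of the same length, or 2.90%. The match began 22 bases before the start of Tyr, 39 before Tyrp1, 212 before Dct and 242 before Mlana. The Tyrp1 and Mlana matches lie before the canonical starts only. Both are inside the annotated genes, which begin at chr4:80752360 and chr19:29674900. The palindromic E-box CACGTG was in none of the 5 and in 6.26% of all promoters. Both strands were read for both motifs, no M-box match shared a base with a CACGTG in these 5, and a match describes the sequence only.

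Melanocytes made up 2.70% (2.27 to 3.20) of control cells and 2.59% (2.08 to 3.18) of Gli2EKO cells, a ratio of 0.957 (0.721 to 1.26). A difference in share was not detectable at this number of cells. Members had a median of 10932 UMIs in the control and 11427 in the Gli2EKO library, 1810798 and 1174918 UMIs in all. The lowest member held 12.9 marker UMIs per 10000 in the control and 30.0 in Gli2EKO. Just outside the rule, 3 control cells with 4 or 5 markers reached at most 2.97 per 10000 and 1 Gli2EKO cell reached 4.14, and 8 control and 2 Gli2EKO cells passed the UMI minimum with only 3 markers. A further 11 control and 7 Gli2EKO barcodes met the marker rule but failed the cell limits. No barcode was shared by the libraries.

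RNA of neighbouring cells was present in some members. The 12 keratinocyte markers had a median of 4.57 UMIs per 10000 in control and 3.91 in Gli2EKO melanocytes, against 112 and 184 in keratinocytes. However, 16 control and 9 Gli2EKO melanocytes lay at or above the lower quartile of the keratinocytes of their own library. That limit differed, at 58.4 UMIs per 10000 in control and 98.2 in Gli2EKO. By the same measure 4 and 3 melanocytes reached fibroblasts. Summed over melanocytes, the keratinocyte markers had 3283 CPM in control and 3758 in Gli2EKO, and the 7 fibroblast markers 1014 and 544, where CPM is counts per 1000000 UMIs summed over the cells of a library. Scrublet, a caller that scores resemblance to simulated doublets, ranked 28 control and 19 Gli2EKO melanocytes in the top 8% of their library. In the opposite direction, Dct had a UMI in 12.3% of control and 8.37% of Gli2EKO keratinocytes and Tyr in 1.30% and 0.532%, at median depths of 12764 and 13168 UMIs. Ptprc, the leukocyte antigen CD45, had no UMI in melanocytes of either library. The ribosomal RNA entry Rn18s-rs5 had a median of 257 per 10000 in control and 147 in Gli2EKO melanocytes, with 241 and 143 in the other cells.

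The markers that chose the cells are given as a description. Dct, which converts dopachrome during eumelanin synthesis, was the most abundant, with 14099 CPM in control and 16053 in Gli2EKO melanocytes. Pmel had 5567 and 7103 CPM, Mlana 2617 and 2673, Tyrp1 1594 and 1687, and Mitf 628 and 648. These are counts of 3′ tags, roughly 1 a transcript, and are not divided by transcript length.

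Per-cell medians differed more between the libraries than the sums did for Pmel, Mlana, Tyrp1 and Mitf, but not for Dct. The median control cell held 42.1 Pmel UMIs per 10000 and the median Gli2EKO cell 69.9, with quartiles of 17.5 and 67.0 against 31.7 and 96.6. For Mlana the medians were 8.39 and 17.5, for Tyrp1 8.93 and 14.2, for Dct 156 and 172, and for Mitf 5.43 and 6.31. The quartile ranges overlapped for each of these genes. The gap was wider in shallow cells. Among cells under 10000 UMIs, Pmel stood at 4418 CPM in 63 control and 8544 in 38 Gli2EKO cells, and Mlana at 955 and 2021. Among deeper cells Pmel stood at 5874 CPM in 68 control and 6679 in 49 Gli2EKO cells, and Mlana at 3062 and 2865. A sum over cells is led by the deep ones, so both scales are given where they part.

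**Figure D1:**
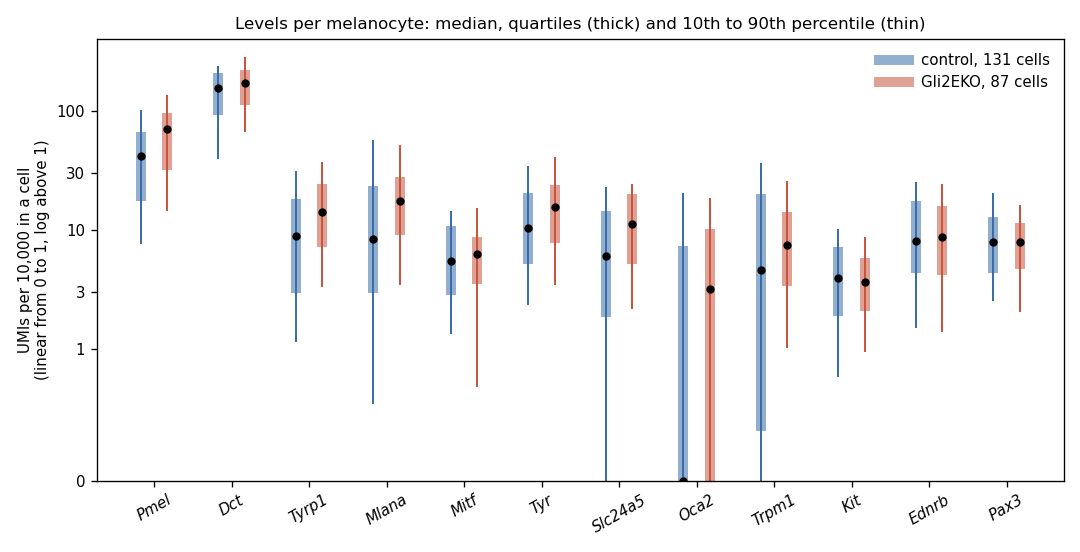
Levels of 12 melanocyte genes per cell, in UMIs per 10000 (linear from 0 to 1 and logarithmic above), for 131 control and 87 Gli2EKO melanocytes; points are medians, thick bars quartiles and thin bars the 10th to 90th percentile. Median Pmel is 42.1 in control and 69.9 in Gli2EKO cells, and the quartile ranges of the libraries overlap for every gene drawn.

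The genes that set melanocytes apart from all other cells extended well past the rule. Of 4317 genes with at least 50 UMIs in the melanocytes of each library, 128 (2.97%) were at least 8-fold higher in melanocytes in both libraries. The 20 highest outside the rule included known pigment genes and others. Tyr, the rate-limiting enzyme of melanin synthesis, had 1573 CPM (1516 to 1632) in control and 1662 (1589 to 1738) in Gli2EKO melanocytes, against 1.42 and 1.25 CPM in other cells. Slc45a2, a melanosomal transporter mutated in oculocutaneous albinism, had 409 and 414 CPM against 0.229 and 0.329. Tspan10, a tetraspanin linked to pigmentation, led the order with 102 (87.5 to 117) and 136 CPM (116 to 159) against 0.0153 and 0.0439 in other cells. The levels of these 3 genes outside the members are means over all other cells, of which 41 control and 12 Gli2EKO keratinocytes had a Tyr UMI, and the other cells include the 8 control and 2 Gli2EKO cells that missed the rule by 1 marker.

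Ptgds, which makes prostaglandin D2, was the most abundant of the 20 at 4083 and 4192 CPM. Syt4, a vesicle protein known from neurons, had 620 and 652 CPM, and Npy, a neuropeptide, 376 and 268. Mc1r, the receptor for melanocortin, had 218 and 248 CPM. Alx1, a homeobox factor of the craniofacial mesenchyme, had 58.0 and 63.0 CPM in these back skin melanocytes and 0.0458 and 0.0659 in other cells. Pax3, Car14, Fstl4, Synpr, Gjb1, Mcoln3, Cpne4, Gpr143, Oca2, Trpm1, Slc24a5 and the predicted gene Gm47865 completed the set.

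**Figure D2:**
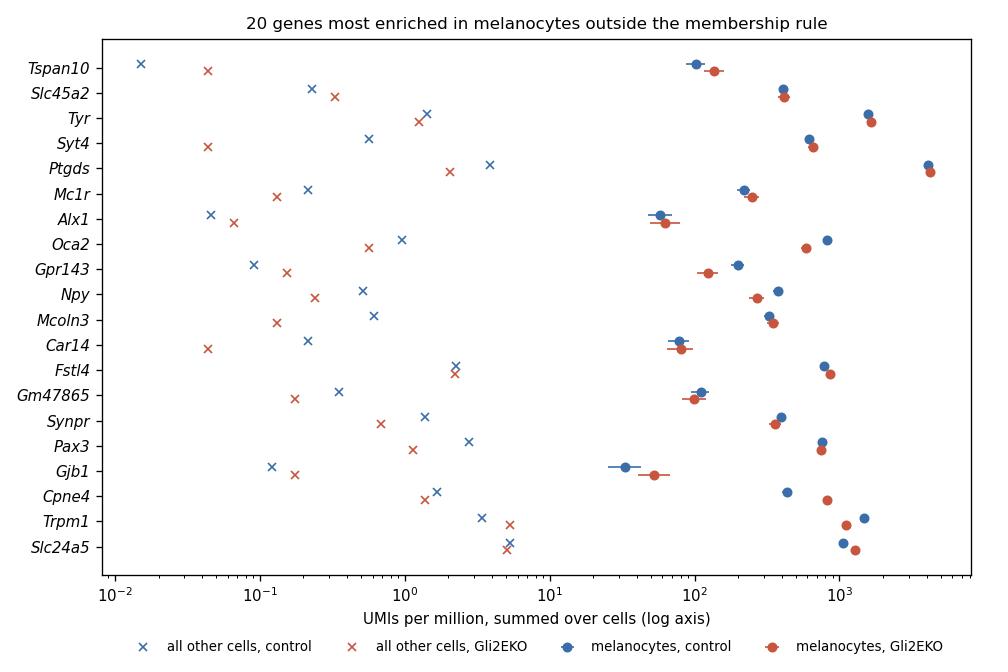
Levels of the 20 genes most enriched in melanocytes outside the membership rule, in CPM on a log axis, in melanocytes (points with 95% Poisson intervals) and in all other cells (crosses) of each library. Every melanocyte point lies far to the right of its cross; Tyr stands at 1573 and 1662 in melanocytes against 1.42 and 1.25.

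Schwann cells share the neural crest origin and several genes with melanocytes, and 28 Schwann-like cells were set beside them. Sox10, the transcription factor of both lineages, had 232 and 213 CPM in control and Gli2EKO melanocytes and 234 and 299 in Schwann-like cells. The Schwann-like groups held 18 and 10 cells, too few for more than this level. Between the libraries, Fabp7, a fatty acid binding protein of glia and early crest cells, had 100.5 and 72.4 CPM in melanocytes.

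Between the libraries, 53 of 7762 genes with at least 50 UMIs over both (0.683%) were at least 2-fold higher in Gli2EKO melanocytes and 222 (2.86%) at least 2-fold lower. The median log2 ratio, Gli2EKO over control, was -0.04 over all of them. Counts of list genes above or below 0 have only this median as a background. Most melanocyte gene lists had no member past 2-fold in either direction.

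The melanin enzymes Tyr, Tyrp1 and Dct had log2 ratios of 0.08 (-0.0040 to 0.16), 0.08 and 0.19, with a list median of 0.08. No member passed 2-fold. Without the cells of highest doublet scores 1 lay above 0 and 2 below, with a median of -0.02. Of 14 melanosome matrix and membrane genes, 12 had enough UMIs, 7 lay above 0 and 5 below, none past 2-fold, with a median of 0.02. This balance turned to 2 above and 10 below, with a median of -0.10, without the cells of highest doublet scores, and to 3 and 9 without sub-clusters 4 and 6 described below, so no direction is given for the list. Gpnmb, a melanosomal glycoprotein, stood at 1220 and 1255 CPM and the tetraspanin Cd63 at 2365 and 2414. Slc24a5, a cation exchanger of the melanosome, had 1050 (1004 to 1099) and 1279 CPM (1215 to 1346), a log2 ratio of 0.28. Below 0 were Oca2, an anion channel regulator of melanosomal pH, at 823 (782 to 866) and 588 CPM (545 to 634), Trpm1 at 1481 and 1111, Gpr143, a receptor in the melanosome membrane, at 199 and 123, and Slc24a4, another cation exchanger, at 254 and 149.

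Those 4 genes were each found in a larger share of Gli2EKO cells. Oca2 had a UMI in 65 of 131 control and 63 of 87 Gli2EKO cells, and Trpm1 in 101 and 80. In cells under 10000 UMIs Trpm1 stood at 796 CPM in control and 1106 in Gli2EKO, and in deeper cells at 1664 and 1112. In cells under 10000 UMIs Oca2 stood at 400 CPM in control and 791 in Gli2EKO, and in deeper cells at 937 and 529. The log2 ratio of Oca2 was -0.49 from the sums and 0.19 from the mean of per-cell values, so no direction holds for it over both scales. For Slc24a4 the values were -0.77 and 0.00042.

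Organelle traffic genes showed small ratios. Of 20 melanosome sorting genes, 16 had enough UMIs and none passed 2-fold (median -0.09), and of 9 transport genes 7 did and none passed (median -0.18). Myo5a, the motor that carries melanosomes to the cell edge, had 744 and 629 CPM. Rab27a, which recruits the motor, had 235 and 185, and Mlph, which joins both, 133 and 117. Sytl2, a Rab27 effector, had 168 (150 to 188) and 233 CPM (206 to 263), the highest ratio of the transport genes at 0.47.

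Of 15 transcription factors of the lineage, 14 had log2 ratios below 0 and 1 above, with a median of -0.28 and none past 2-fold. Only 6 of the 15 had an interval that lay below 0, and none had one above. Mitf stood at 0.04, Pax3 at -0.02 and Ets1 at -0.0033. Lower values were those of Lef1, the partner of β-catenin in Wnt signalling, at 144 (127 to 162) and 79.2 CPM (63.9 to 97.0), Tfap2b at 332 and 197, Sox5 at 343 and 219, and Zeb2 at 484 and 364. Lef1 is also expressed outside melanocytes, at 182 and 122 CPM in the other cells, and its highest level was in the melanocytes that carried keratinocyte RNA, at 219 CPM, against 38.1 to 109 in the other sub-clusters described below. Of 14 receptors, 9 had enough UMIs, 8 lay below 0, of which 4 with their interval, and none passed 2-fold. Kit had 427 (398 to 459) and 378 CPM (344 to 415), Ednrb 1232 and 1093, and Met, the receptor for hepatocyte growth factor, 349 and 344. Kit had a UMI in 123 of 131 and 83 of 87 cells.

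The adhesion list had 10 genes with enough UMIs and none past 2-fold. E-cadherin, Cdh1, which ties epidermal melanocytes to keratinocytes, was at 196 CPM in both libraries. P-cadherin, Cdh3, typical of follicle melanocytes, had 257 and 215 CPM. The integrin Itga6 had the lowest ratio of the list, at -0.93, with 117 (101 to 133) and 61.3 CPM (48.0 to 77.2). Of 8 survival genes, 4 had enough UMIs and none passed 2-fold, and the other 4 (Bcl2a1a, Bcl2a1b, Bcl2a1d and Birc7) had no UMI. Among the first were Bcl2, needed for melanocyte survival in the hair follicle, at 197 and 156 CPM, and Mcl1, of the same family.

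**Figure D3:**
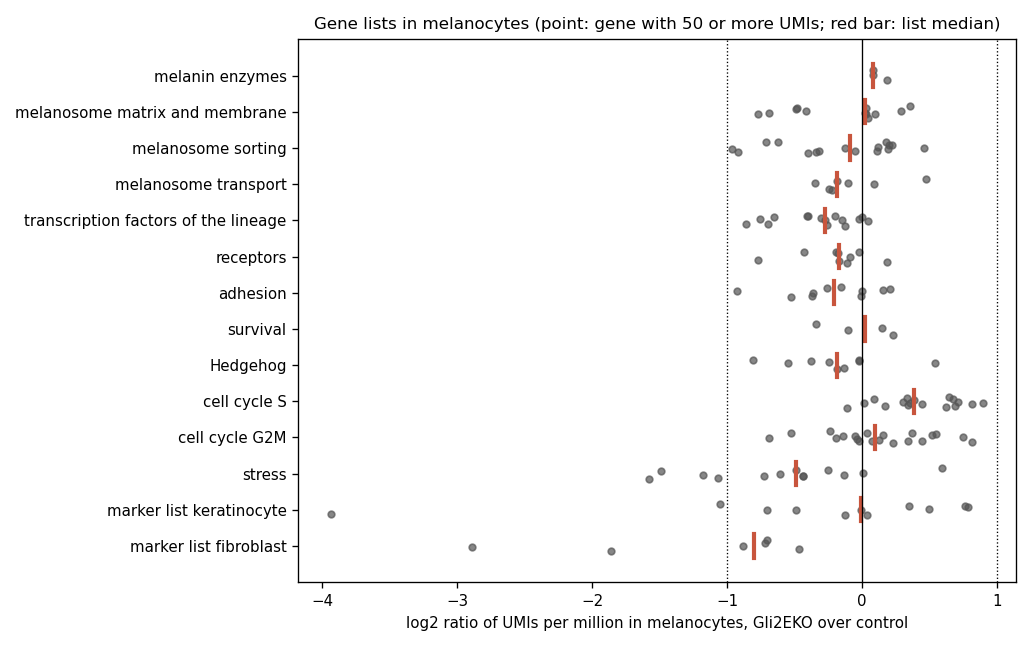
Log2 ratio, Gli2EKO over control, of CPM in melanocytes for genes of 14 lists with at least 50 UMIs over both libraries (points; vertical scatter is for legibility), with each list's median as a red bar and dotted lines at 2-fold. Pigment lists sit near 0, the S phase list has a median of 0.38 and the stress list one of -0.49.

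The Hedgehog pathway was the one altered in the epithelium, and its genes were sparse in melanocytes. Of 12 genes, 9 had enough UMIs, 8 lay below 0 and none passed 2-fold. Only 1 of the 9 had an interval that lay below 0, so no direction is given for the list. Ptch1, a receptor and target of the pathway, had 81.2 CPM (68.6 to 95.4) in control and 80.0 (64.7 to 97.9) in Gli2EKO melanocytes, against 173 and 110 in keratinocytes. Gli1, the usual target gene, had only 16 and 8 UMIs in melanocytes, and in keratinocytes 22.2 and 12.0 CPM. Gli3 had 108 and 106 CPM in melanocytes. Gli2 itself had 19.3 CPM (13.5 to 26.9) and 28.1 (19.3 to 39.4) in melanocytes. In keratinocytes, where Cre is active, Gli2 had 83.9 and 83.2 CPM, and 3′ tags of a transcript that keeps its end do not check a deletion elsewhere in the gene.

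Ligands for melanocyte receptors were measured mostly in other cells. Kitl, the ligand of Kit, stood at 140 (137 to 144) and 80.4 CPM (77.4 to 83.5) in keratinocytes and at 90.6 and 46.7 in fibroblasts, lower in the Gli2EKO library in both. Edn3, a ligand of Ednrb, stood at 82.6 and 60.5 CPM in fibroblasts. In melanocytes Kitl had 63.0 and 17.9 CPM, but 86 of its 135 UMIs there lay in the 35 cells of the sub-cluster that carried keratinocyte RNA, and without the cells of highest doublet scores its log2 ratio went from -1.82 to 0.41.

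Cell cycle genes were detected in a large part of the melanocytes. After every cell was thinned to 2000 UMIs, 44 of 131 control cells (33.6%, 25.6 to 42.4) and 42 of 87 Gli2EKO cells (48.3%, 37.4 to 59.2) held at least 2 S phase genes. For G2M genes the shares were 26.0% (18.7 to 34.3) and 33.3% (23.6 to 44.3). Unthinned shares were 76.3% and 83.9% for S and 56.5% and 58.6% for G2M. In keratinocytes the thinned S shares were 54.3% and 47.8%, in fibroblasts 33.1% and 24.3%. The thinned intervals of the libraries overlapped for melanocytes over all members.

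Of 17 S phase genes with enough UMIs, 16 had log2 ratios above 0, with a median of 0.38 and none past 2-fold. An interval above 0 was found for 8 of the 17, and none lay below. Pcna, the sliding clamp of DNA replication, had 161 (143 to 180) and 248 CPM (220 to 278). Of the Mcm helicase subunits, Mcm5 had 35.3 and 62.1 CPM and Mcm3 59.1 and 95.3. Of 20 G2M genes 12 lay above 0, with a median of 0.10, and 5 intervals lay above 0 and 2 below. Ccnb2, a cyclin, had 76.2 and 128 CPM, whereas Mki67, the proliferation antigen, had 356 and 247 and Top2a 420 and 380. Doublet scores and keratinocyte RNA moved with these values. Without the cells of highest doublet scores the S shares were 23.3% (15.5 to 32.7) and 39.7% (28.0 to 52.3) and the S median 0.68. Another cell set, added after the data were seen, left out the sub-clusters that carried keratinocyte or fibroblast RNA. Its S shares were 22.5% (14.9 to 31.9) and 49.3% (37.2 to 61.4). The intervals of this set did not overlap, but cells of 1 library are not replicates, so they do not compare genotypes.

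Of 13 stress and immediate early genes with enough UMIs, 11 had log2 ratios below 0 and 4 lay at least 2-fold lower in Gli2EKO melanocytes, against a background of 2.86% of genes. Fos had 263 (240 to 288) and 93.6 CPM (77.0 to 113), Jun 813 and 358, Egr1 173 and 57.9 and Atf3 78.4 and 37.4. These are transcription factors induced within minutes of a stimulus, enzymatic dissociation among them. In the other cells Fos stood at 500.4 and 412 CPM and Egr1 at 453 and 367. For Fos and Jun the gap was in deeper cells. Under 10000 UMIs Fos stood at 249 and 244 CPM and Jun at 665 and 581, while in deeper cells Fos stood at 267 and 49.5 and Jun at 853 and 293. Without the cells of highest doublet scores Atf3 turned to a log2 ratio of 0.29. The heat shock gene Hspa1a, whose near-identical copy Hspa1b can share its reads, had 974 (929 to 1020) and 720 CPM (672 to 770) in melanocytes and went the other way in keratinocytes, with 682 and 1089, and in fibroblasts, with 552 and 966.

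The largest ratios differed in how many cells carried them. Among the 10 lowest, Hba-a1, Hba-a2 and Hbb-bs, the globins of red blood cells, had 1666, 1198 and 3424 UMIs in control melanocytes and 3, 3 and 11 in Gli2EKO, and 1 control cell held 71.4%, 66.9% and 73.7% of the control UMIs. For Fabp4, a fatty acid carrier, 1 cell held 70.6%, for the hair keratin Krt35 62.7% and for Lpl 61.3%. Aspn, Fbn1, Elmo1 and Gm49425 completed the 10, with 34 of 66, 30 of 80, 82 of 160 and 22 of 59 control UMIs in 1 cell. Among the 10 highest, all 62 Gli2EKO UMIs of the protease inhibitor Slpi lay in 1 cell, as did 64 of 84 of Rspo3, 82 of 109 of Tagln and 40 of 65 of Acta2. Without the highest cell of each library the ratios stayed on the same side, for example at -8.28 for Hba-a1, -6.02 for Hbb-bs, -2.82 for Krt35, 1.95 for Tagln and 1.24 for Rspo3, except for Slpi, which had no Gli2EKO UMI left. Leaving out more cells changed some signs. Krt35, Tagln and Acta2 changed sign without the cells of highest doublet scores. Aspn, Rspo3 and Acta2 did so without the sub-clusters, described below, that carried keratinocyte or fibroblast RNA. With the highest cell included, Hba-a1 was found in 6 control cells and Krt35 in 10. The globin gap was not particular to melanocytes. In all other cells of control and Gli2EKO, Hba-a1 had 67.3 and 3.58 CPM, Hba-a2 50.7 and 2.46, and Hbb-bs 157 and 9.36. Lhfp was spread over 24 control and 26 Gli2EKO cells, with a ratio of 1.69 without the highest cells, and E2f1, a cell cycle transcription factor, over 13 and 23 cells, with 1.66. Gm38560 was found in 16 and 10 cells, with 1.23.

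Iqgap2, a scaffold protein of the actin cytoskeleton, was the gene of these 20 found in the most Gli2EKO cells. It had 37 UMIs in 28 of 131 control cells and 140 in 60 of 87 Gli2EKO cells, 20.4 CPM (14.4 to 28.2) and 119 CPM (100.2 to 141), a log2 ratio of 2.54 (2.01 to 3.11). The highest cell held 3 control and 11 Gli2EKO UMIs, and without those cells the ratio was 2.55. In other cells Iqgap2 had 11.4 and 13.0 CPM. In melanocytes under 10000 UMIs it stood at 34.0 and 135 CPM, in deeper ones at 16.8 and 115, and it was higher in the Gli2EKO cells of each of the 6 sub-clusters described below. Thinned to 2000 UMIs, 5.34% (2.18 to 10.7) of control and 16.1% (9.09 to 25.5) of Gli2EKO melanocytes had an Iqgap2 UMI, and at this depth the intervals overlapped.

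Frmd5, a membrane-linked FERM domain protein, had 12 UMIs in 10 control and 45 in 17 Gli2EKO cells, a log2 ratio of 2.53 (1.59 to 3.59). Glis3, a zinc finger factor related to the Gli family, had 30 UMIs in 20 and 58 in 29 cells, a ratio of 1.58 (0.92 to 2.26). Cpne4, a calcium-dependent membrane-binding copine and a melanocyte-enriched gene, missed the 2-fold line at 0.93 (0.79 to 1.07) with 431 and 821 CPM, and had a UMI in 102 of 131 and 83 of 87 cells. In other cells Cpne4 had 1.68 and 1.38 CPM.

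**Figure D4:**
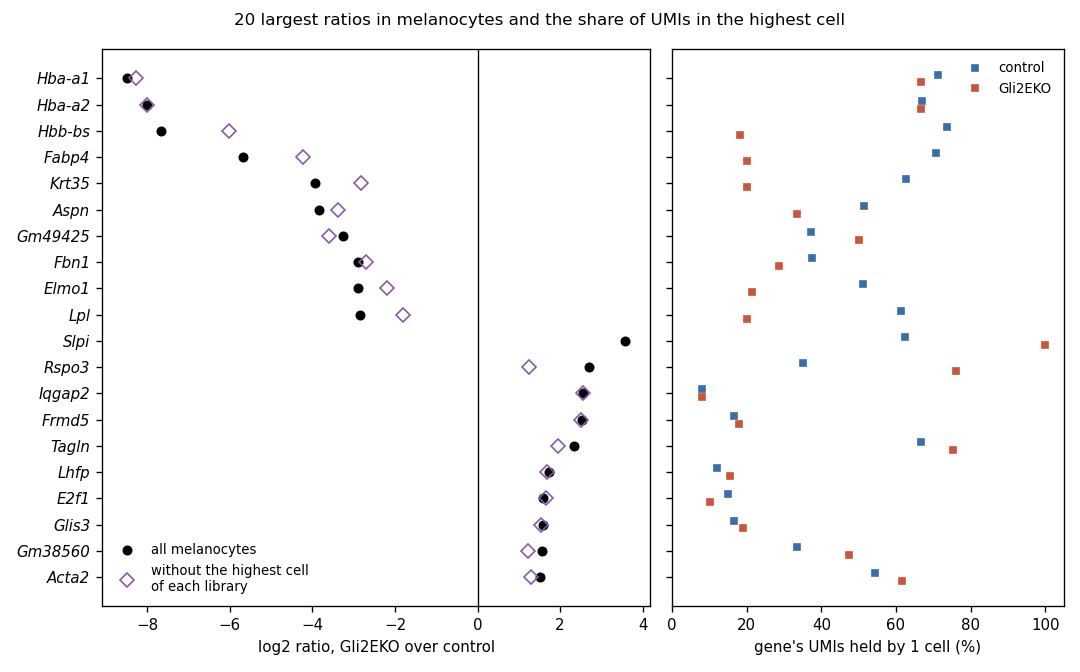
The 20 largest log2 ratios in melanocytes, Gli2EKO over control, from all cells (filled points) and without the highest cell of each library (open diamonds), beside the percent of each gene's UMIs that 1 cell held in each library. Iqgap2 keeps a ratio of 2.55 without its highest cells, while Slpi has no diamond because all 62 Gli2EKO UMIs were in 1 cell.

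Melanocytes also differed among themselves, and a graph clustering of all 218 gave 6 sub-clusters, which are kept as numbers. Sub-cluster 1 (29 control and 26 Gli2EKO cells) had the highest Mlana at 5219 CPM, Oca2 at 1400, Trpm1 at 2654 and Mc1r at 452. Not every pigment gene was highest there. Sub-cluster 3 had more Tyrp1, at 2682 CPM against 2503, and Gpnmb, at 2171 against 1357. Among Gli2EKO cells its Oca2 was higher too, at 1065 against 977 CPM. Sub-cluster 2 (41 and 6 cells) had 804 CPM of Mlana, 37.8 of Oca2, 299.6 of Trpm1 and 94.6 of Mc1r. These were the lowest of the 6 for Oca2, Trpm1 and Mc1r but not for Mlana. Sub-cluster 2 also had the highest Kit at 801, Pax3 at 1630, Sox10 at 410 and Erbb3 at 151 CPM. Its Dct, at 18060 CPM, was close to the 19565 of sub-cluster 1. It was also the shallowest, with a median of 6377 UMIs against 15219, and had a median of 289 Rn18s-rs5 UMIs per 10000 against 184. In sub-cluster 2 Kit stood at 870 CPM in control and 426 in Gli2EKO cells, and Erbb3 at 168 and 60.9. Their high levels were thus those of its control cells. Pax3, at 1613 and 1726, and Sox10, at 388 and 528, were high in the cells of both libraries. Marker and list genes were left out of the genes clustered on, but they vary together with those that were used, so the levels describe the sub-clusters and are no test.

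Sub-cluster 2 held 31.3% (23.5 to 40.0) of control and 6.90% (2.57 to 14.4) of Gli2EKO melanocytes. Other resolutions and seeds gave 5.75% to 6.90% for Gli2EKO. When the mean of each library was removed from every gene before clustering, the matching group held 30.5% of control and 21.8% of Gli2EKO cells, so the gap narrowed. A group that is mostly of 1 library may be that library, and the part of depth or Rn18s-rs5 in the gap was not tested. Sub-cluster 1 held 22.1% of control and 29.9% of Gli2EKO cells, and its match with library means removed 22.1% and 24.1%. It did not stay whole at a resolution of 1.2. Its closest match there had an overlap of only 0.51 (cells shared over cells in either). That part held 17.6% of control and 5.75% of Gli2EKO cells.

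Sub-cluster 3 (21 and 25 cells) had the highest Hspa1a at 2138 CPM, Atf3 at 190 and Met at 846. Its Atf3 UMIs lay in 7 control and 6 Gli2EKO cells. Sub-cluster 5 (11 and 14 cells) was made of dividing cells, with 1286 CPM of Top2a and 566 of Ube2c, and kept 13530 CPM of Dct. Sub-cluster 4 (24 and 11 cells) had a median of 82.6 keratinocyte marker UMIs per 10000, and 27 of its 35 cells were among the highest doublet scores. Sub-cluster 6 (5 and 5 cells) had a median of 81.4 fibroblast marker UMIs per 10000, with 8 of 10 cells among the highest scores. Both had lower Dct, at 6906 and 6896 CPM.

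**Figure D5:**
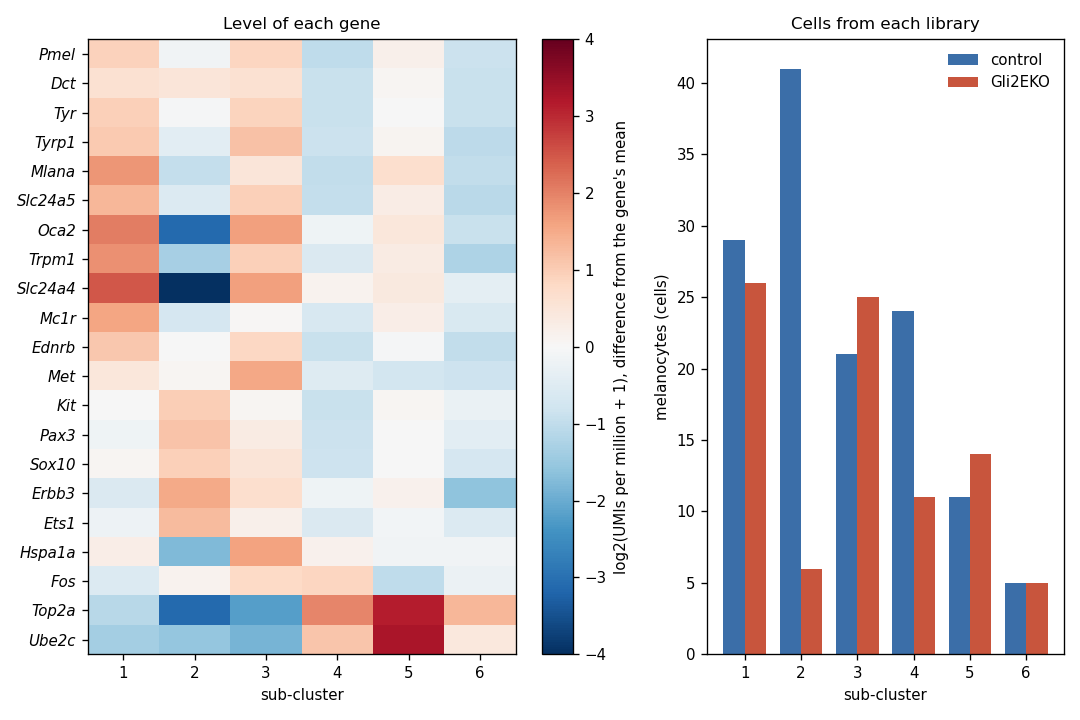
Left, levels of 21 genes in the 6 melanocyte sub-clusters as log2(CPM + 1), each gene centred on its mean over sub-clusters, with colours that stop at a difference of 4. Right, cells of each library per sub-cluster. Sub-cluster 2, with high Pax3, low Oca2 and a Kit level that is high in its control cells, holds 41 control and 6 Gli2EKO cells. This gap narrows to 30.5% and 21.8% of cells with library means removed.

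Levels of several genes outside the rule went together from cell to cell. Over 111 control and 80 Gli2EKO cells thinned to 5000 UMIs, Tyr correlated with Ednrb at Spearman's rho of 0.70 and 0.70 and with Slc24a5 at 0.65 and 0.61. Oca2 correlated with Trpm1 at 0.71 and 0.62. Tyr with Kit gave 0.24 and 0.10, and Tyr with Pax3 -0.10 and 0.23. Pairs with a gene of the rule are a description of chosen cells: Pmel with Dct gave 0.77 and 0.80, Pmel with Top2a -0.22 and -0.36, and Mitf with Tyr 0.00092 in control and 0.31 in Gli2EKO cells. Cells of 1 library share their preparation and are not replicates, so these values describe the cells. RNA of other cells lowers melanocyte genes together in a cell, and its part in these correlations was not tested.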

How the data were processed

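Single-cell 3′ libraries of epidermal whole mounts were deposited as UMI counts per gene and barcode. Per the labels and the study's methods, the authors made these counts with Cell Ranger 9.0.1 on GRCm39, and Seurat was named among their tools. No authors' annotation of cells was used. Counts were read without correction, cells were kept with more than 1000 and fewer than 8000 detected genes and under 15% mitochondrial UMIs, and members followed the marker rule of the report. The members and gene lists were chosen with earlier results of these data known.

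UMIs were summed over the melanocytes of each library and given as CPM (counts per 1000000 UMIs). Ratios carry conditional binomial intervals, levels exact Poisson and shares Clopper-Pearson intervals, at 95%, computed with scipy 1.17.1. The intervals and ratios were tested first on simulated Poisson counts. These leave out the uneven spread of UMIs over cells, so they check the calculation only. A gene needed 50 UMIs over both libraries (and 3 in each among the largest ratios) for a ratio between libraries, and 50 in each for enrichment, where a level in other cells was set to at least 3 UMIs. Genes are named when they are in the rule or the gene lists, among the 10 largest or 10 smallest ratios, or among the 20 most enriched genes outside the rule. Outside that rule, genes in the share of cells, depth split and correlation values were picked among these names after values were seen.

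Other cells were classed by marker lists for keratinocytes, fibroblasts, immune, endothelial and Schwann-like cells, and mural and Merkel lists were read as carry-over. Merkel markers Krt8, Krt18, Krt20 and Atoh1 had no UMI in melanocytes, and immune, endothelial and mural lists had a median of 0 UMIs per 10000. Doublets were scored with Scrublet in scanpy 1.11.5 and kept, with the top 8% left out as an alternative. Automatic calls marked 260 control and 5 Gli2EKO cells and were not used, and scDblFinder, the caller named by the study, was not run. Sub-clusters came from Louvain clustering of 1000 variable genes outside the lists, 10 components and 15 neighbours at resolution 0.8. These settings, the depth split at 10000 UMIs, the single-cell shares and the motifs were chosen after the files were open. Promoters and coordinates were read from GRCm39 with GENCODE M39, a later release than the M30 of the authors, from which starts may differ, and 6 of 6 genes looked up matched the identifiers in the files. Some genes of the lists are not reported here. Alternatives were other cell limits, marker minimums, UMI minimums, comparison cells, thinning depths and cell sets, centring, and means of per-cell values.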

Additional observations from a re-analysis of the deposited data

Results flagged for a closer look

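Genes of the lists whose ratio between libraries lay on opposite sides of 0 in melanocytes and keratinocytes, with both counting intervals clear of 0, are given as log2 ratios in melanocytes against keratinocytes. They were picked for their opposite signs and do not speak for their lists. The share of all genes of this kind was not computed, so the counts per list have no background beside them. The difference between the cell types was not tested, since each has 1 library a genotype. Of 13 stress genes with enough UMIs 5 were of this kind: Hspa1a -0.44 against 0.67, Hspa1b -0.44 against 0.71, Dnajb1 -0.73 against 0.67, Junb -0.61 against 0.14 and Atf3 -1.07 against 0.06, although Atf3 turned to 0.29 in melanocytes without the highest doublet scores. Of 17 S phase genes 8 were of this kind, with Pcna 0.62 against -0.21, Gins2 0.90 against -0.16, Mcm2 0.65 against -0.15, Mcm3 0.69 against -0.28, Mcm5 0.81 against -0.14, Mcm6 0.67 against -0.45, Tipin 0.71 against -0.27 and Rrm2 0.44 against -0.29, and of 20 G2M genes only Bub1, with 0.52 against -0.38. Among organelle genes were Sytl2 0.47 against -0.76 and Ap3d1 0.46 against -0.20 with Trpm1 -0.42 against 0.83, Rab27a -0.35 against 0.82 and Rab38 -0.40 against 0.50. The ratio of Trpm1 had the other sign in melanocytes under 10000 UMIs, with 796 CPM in control and 1106 in Gli2EKO. Outside melanocytes Trpm1 was low, at 3.42 CPM in control and 5.32 in Gli2EKO over all other cells. Per-cell medians in melanocytes went against the sums for Hspa1a, at 0.50 UMIs per 10000 in control and 1.69 in Gli2EKO. For Hspa1b they did so too, at 1.74 and 2.36. The integrin subunit Itgb1 stood at 0.21 against -0.25. Pmel, with 0.35 against -0.39, and Dct, with 0.19 against -0.61, helped to choose the melanocytes, so their values are a description only. Pmel stood at 3.89 and 2.96 CPM in control and Gli2EKO keratinocytes and at 3.62 and 2.89 in fibroblasts, so its keratinocyte ratio is that of a low level common to both cell types. Dct too was found in both, with a UMI in 12.3% of control and 8.37% of Gli2EKO keratinocytes and in 8.79% and 6.14% of fibroblasts.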

How the results depend on the processing

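No paired analysis was possible because each genotype has 1 library and no replicate. Over 7 alternatives the melanocyte share ranged from 2.02% to 2.87% in control and from 1.93% to 2.67% in Gli2EKO. With all 5 markers required, the control share was 2.17%, and with the 25% of melanocytes richest in keratinocyte RNA left out the shares were 2.02% and 1.93%, since those cells no longer count. The minimum of UMIs set the number of genes past 2-fold: 181 higher and 584 lower at 20 UMIs, 20 and 85 at 100. Without the sub-clusters that carry keratinocyte or fibroblast RNA, 122 genes were lower, and the cause was not tested. The number of genes tested changed with the minimum and with the cells left out, so these counts are not shares of the 7762 genes. Against keratinocytes alone, 201 of the 4317 genes were past 8-fold, where 128 were so against all other cells. S phase shares were 76.3% in control and 83.9% in Gli2EKO without thinning and 56.8% and 70.0% at 5000 UMIs, and G2M shares were 56.5% and 58.6% without thinning and 40.5% in control at 5000 UMIs. With the highest doublet scores removed, the control shares were 23.3% for S and 17.5% for G2M, and without the keratinocyte and fibroblast sub-clusters the S share was 22.5% in control and 49.3% in Gli2EKO. With library means removed, an alternative added after the data were seen like the one without sub-clusters, sub-cluster 2 held 21.8% of Gli2EKO melanocytes.

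Over 84 named genes, 498 log2 ratios were computed under alternatives, of which 356 lay within the interval of the reported value, 130 outside it and 12 with the opposite sign. The mean of per-cell values turned Oca2 to 0.19 and Slc24a4 to 0.00042. Removing the highest doublet scores turned Kitl to 0.41, Atf3 to 0.29, Krt35 to 0.51, Tagln to -2.45 and Acta2 to -1.17. Leaving out the 25% richest in keratinocyte RNA turned Krt35 to 0.93 and Acta2 to -0.40. Without the keratinocyte and fibroblast sub-clusters Aspn went to 0.49, Rspo3 to -1.97 and Acta2 to -0.93. With 1 library a genotype, the spread between animals was not measured.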
